A study of Drosophila melanogaster with 3 samples.

Results

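The 130 genes described here are entries of the deposited expression table that carried only a CG number as their name. Their transcript level was much higher in mxcmbn1 larvae than in mxcG43 and Canton S larvae. An entry was counted when its level in the mxcmbn1 library was at least 5 FPKM and when this level was at least 5 times that in the mxcG43 library and at least 5 times that in the Canton S library, with 0.1 FPKM added to each value. FPKM is a count of fragments scaled to the exon length of a gene and to the mapped fragments of the library. The rule found 130 of the 7376 CG-number entries (1.76%), in a table of 15185 entries. Without the condition on the name it found 290 entries (1.91% of all), so 160 entries listed under other names lay past the same thresholds. The mxcmbn1 level was past these thresholds over Canton S alone for 2.73% of all entries, and over mxcG43 alone for 2.49%. A CG number is the running number given to a predicted Drosophila gene before it has a name, and the gene name column of the table held for these entries either a dash, for 16 of them, or the CG number again. A current RefSeq annotation (Release 6) gave 34 of the 130 a different symbol and left 96 with the CG number, so the term uncharacterised no longer holds for all of them.

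The data came from 3 genotypes, each with 1 library made from total RNA of whole male 3rd instar larvae. Larvae hemizygous for mxcmbn1, a recessive lethal allele of the X-linked gene mxc that gives tumours of the lymph gland (LG), the larval haematopoietic organ, were obtained from a w1 mxcmbn1; Dp(1;4)mxc+R stock after the duplication was removed. Larvae with mxcG43, a hypomorphic allele with no tumour phenotype, came from another stock, and Canton S was the wild type. The stocks thus differed in more than the mxc allele, and some mxcmbn1 larvae stayed in the 3rd instar for longer than control larvae. With 1 library per genotype no difference below has a replicate check, no test across genotypes was possible, and every ratio is a comparison of libraries. Because the mxcmbn1 level chose the genes, its ratios to the other libraries are given as a description.

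Several of the genes that now have names belong to the humoral immune response. In Drosophila, microbial products are sensed in the haemolymph, and cascades of clip-domain and other serine proteases, together with catalytically inactive serine protease homologues, relay the signal to the Toll ligand Spätzle and to the prophenoloxidases of the melanisation reaction. Toll signalling in the fat body then induces secreted antimicrobial peptides and the Bomanins, a family of short peptides with which flies resist many bacteria and fungi. Neprilysins are membrane-bound or secreted metallopeptidases that cleave small peptides.

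The mxcmbn1 library was 1.36 times as deep as the Canton S library and 1.40 times as deep as the mxcG43 library, as judged from genes with few reads. The mutated gene itself, mxc (X, 9130834 to 9137237), had 3.56 FPKM in mxcmbn1, 1.94 FPKM in mxcG43 and 1.96 FPKM in Canton S, and w, which is mutant in the mxcmbn1 stock, had 0.243 FPKM in mxcmbn1, 5.18 FPKM in mxcG43 and 7.25 FPKM in Canton S. Of the markers of cell types, 10 of 10 for haemocytes were higher in mxcmbn1 than in both other libraries (summed level 1779 FPKM in mxcmbn1, 390 FPKM in mxcG43 and 470 FPKM in Canton S), as were 7 of 7 for lamellocytes (274 FPKM in mxcmbn1, 139 FPKM in mxcG43 and 114 FPKM in Canton S). The lamellocyte marker PPO3 (CG42640) is itself a gene of the set, so the rule fixed its direction and it adds nothing to this count. Any difference counted as higher, and some were slight, such as crq with 95.1 FPKM in mxcmbn1, 75.8 FPKM in mxcG43 and 60.8 FPKM in Canton S. The share of all entries at any difference was not counted, so the marker counts here have no like share to be read against. Shares were counted only at a stricter threshold and among other genes. Of 5908 CG-number entries with a mean of at least 1 FPKM, 8.51% were at least 2 times higher in mxcmbn1 than in both and 29.1% at most 0.5 times both. Of the crystal cell markers 3 of 4 were higher in mxcmbn1 than in both (446 FPKM in mxcmbn1, 65.7 FPKM in mxcG43 and 125 FPKM in Canton S), with lz lower, and of the midgut markers 1 of 6 was higher than in both and 1 lower (5362 FPKM in mxcmbn1, 5500.3 FPKM in mxcG43 and 4173 FPKM in Canton S). Fat body markers summed to 9154 FPKM in mxcmbn1, against 20469 FPKM in mxcG43 and 27404 FPKM in Canton S, and 0 of 7 were higher in mxcmbn1 than in both. Salivary glue genes (2108 FPKM in mxcmbn1, 24332 FPKM in mxcG43, 29677 FPKM in Canton S) and testis genes (14.99 FPKM in mxcmbn1, 727 FPKM in mxcG43, 1038 FPKM in Canton S) were lower in mxcmbn1 for 6 of 6 and 9 of 9 markers. The female list of yolk protein and egg genes summed to under 1 FPKM in each library. No haemocyte, lamellocyte or fat body marker was listed at 0 in any library. In whole larvae, more cells of a type and more RNA per cell cannot be told apart, and the part of these differences in the levels below was not tested.

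The levels of the 130 genes in mxcmbn1 spanned from 5.36 to 3183 FPKM, with a median of 45.6 FPKM. In mxcG43 their median was 2.58 FPKM, with a range from 0 to 114 FPKM, and in Canton S it was 2.33 FPKM, with a range from 0 to 175 FPKM. Together they made up 1.79% of the summed FPKM of the mxcmbn1 library, 0.134% of that of mxcG43 and 0.118% of that of Canton S. A few genes carried much of this, since the 5 highest held 40.4% of the summed level in mxcmbn1. The level was at least 100 FPKM for 38 genes, at least 1000 FPKM for 4 and under 20 FPKM for 40. The smaller of the 2 ratios of each gene, called the lower ratio here, had a median of 10.4 (quartiles 6.57 and 19.9), and it was at least 10 for 66 genes, at least 20 for 32, at least 50 for 13 and under 6 for 25. The median log2 ratio was 3.74 over Canton S and 3.72 over mxcG43, where all 5908 CG-number entries with a mean level of at least 1 FPKM had medians of -0.24 and -0.22.

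**Figure D1:**
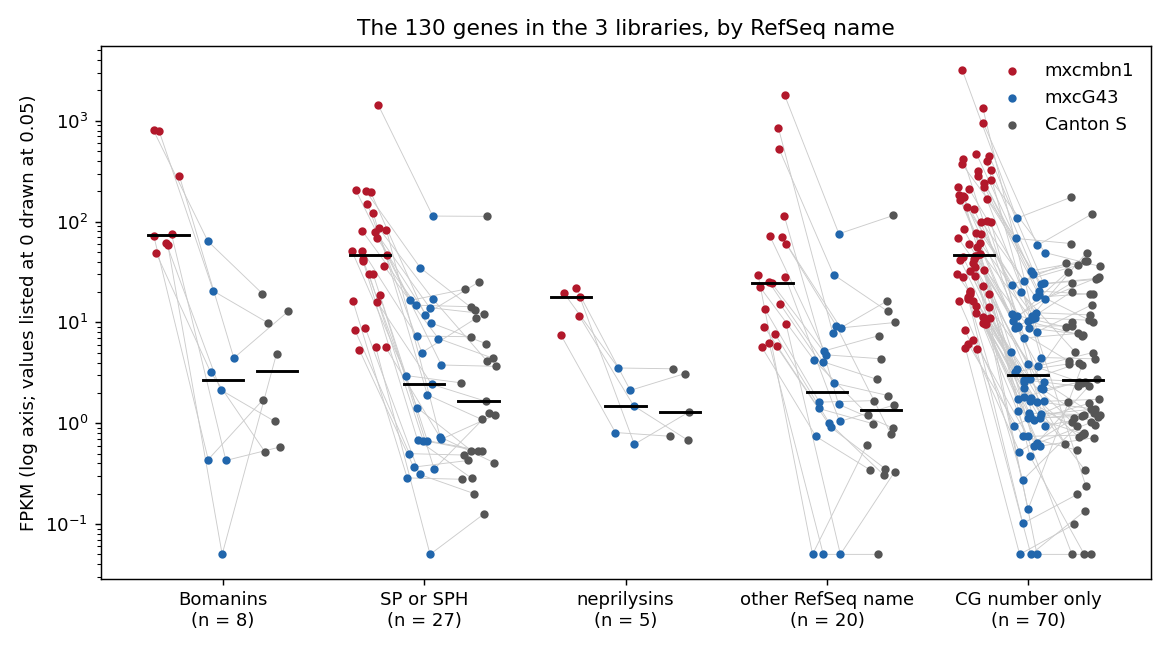
Levels of the 130 genes in FPKM (log axis) in the 3 libraries, grouped by RefSeq name, with the mxcmbn1 library left, mxcG43 in the middle and Canton S right in each group. Each point is 1 gene in 1 library, grey lines join a gene's values and black bars are group medians, which in mxcmbn1 lay at 73.1 FPKM for the 8 Bomanins, 46.5 FPKM for the 27 serine proteases (SP) and homologues (SPH) and 17.7 FPKM for the 5 neprilysins. The group with another RefSeq name joins 15 named genes, 3 lncRNAs and 2 entries merged into other genes.

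The Bomanins were the family with the largest share of its entries in the set, among the named groups. The table had 12 Bomanin entries, of which 8 had only a CG number and were all in the set, while the 4 others, listed as IM1, IM2, IM3 and IM23, were past the same thresholds under their own names. Over the 12 entries the median log2 ratio of mxcmbn1 was 5.70 over Canton S and 5.64 over mxcG43. The summed level of the 8 genes was 2197 FPKM in mxcmbn1, 95.04 FPKM in mxcG43 and 50.9 FPKM in Canton S, which was 10.2% of the summed level of all 130 genes in mxcmbn1.

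Among the short Bomanins, which consist of little more than the family motif, CG15068 (BomS6) had 803 FPKM in mxcmbn1, 63.9 FPKM in mxcG43 and 19.4 FPKM in Canton S. CG15065 (BomS5) had 282 FPKM in mxcmbn1, 4.43 FPKM in mxcG43 and 12.9 FPKM in Canton S. CG18107 (BomS4) had 61.5 FPKM in mxcmbn1, 2.15 FPKM in mxcG43 and 1.04 FPKM in Canton S. These 3 encode peptides of 40 to 45 residues, and their levels in mxcmbn1 differed more among themselves than their lower ratios did, which were 12.5, 21.7 and 27.4. Among the tailed Bomanins, in which a longer stretch follows the motif, CG16836 (BomT2) had 797 FPKM in mxcmbn1, 20.5 FPKM in mxcG43 and 9.93 FPKM in Canton S. CG5778 (BomT3) had 74.8 FPKM in mxcmbn1, 0.427 FPKM in mxcG43 and 0.582 FPKM in Canton S, the largest lower ratio of the family at 110. CG43202 (BomT1) had 48.7 FPKM in mxcmbn1, 3.22 FPKM in mxcG43 and 0.520 FPKM in Canton S. The bicipital Bomanins carry the motif in 2 copies. CG15067 (BomBc2) had 71.5 FPKM in mxcmbn1, 0.437 FPKM in mxcG43 and 1.69 FPKM in Canton S. CG5791 (BomBc3) had 59.0 FPKM in mxcmbn1 and 4.89 FPKM in Canton S and was listed at 0 in mxcG43. CG5778 and CG5791 share 1 locus on 3R, from 17911093 to 17935903, so that their levels may not be fully separate.

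The low levels of the family came to few reads, taken as the smallest possible numbers. Whole numbers of reads could be recovered for 5 of the 8 genes, as the smallest whole numbers that gave the FPKM ratios at the depth of the libraries. CG15065 came to 89 reads in mxcmbn1, 1 in mxcG43 and 3 in Canton S, a ratio to Canton S of 21.9 with a 95% interval from 7.25 to 108. CG43202 came to 127 reads in mxcmbn1, 6 in mxcG43 and 1 in Canton S, a ratio to mxcG43 of 15.1 (6.77 to 42.03). CG15068, with 281, 16 and 5 reads in mxcmbn1, mxcG43 and Canton S, had the smallest ratio to mxcG43 of these, 12.6 (7.60 to 22.3). The intervals are exact (Clopper-Pearson) at these smallest numbers and cover counting error only. The actual read numbers may be larger by a shared factor, here and for every gene below. CG33093, for example, came to 1 read at 0.624 FPKM in Canton S over 1055 exon bases. CG12133 came to 2 reads there at only 0.201 FPKM over 1094 exon bases, so 1 read is too few for CG33093.

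On 2R, from 14268914 to 14278114 on BDGP5, 10 Bomanin entries lay within 9.2 kb with no other entry between them, and 6 of them were CG-number genes. The other 4 were among the highest of the cluster or in the middle of its range. IM3 (BomS3) had 2850 FPKM in mxcmbn1, 48.5 FPKM in mxcG43 and 56.8 FPKM in Canton S. IM1 (BomS1) had 970 FPKM in mxcmbn1, 6.50 FPKM in mxcG43 and 6.30 FPKM in Canton S. IM2 (BomS2) had 370 FPKM in mxcmbn1, 8.68 FPKM in mxcG43 and 7.36 FPKM in Canton S. IM23 (BomBc1) had 114 FPKM in mxcmbn1 and 3.496 FPKM in mxcG43 and was listed at 0 in Canton S. All 10 were higher in mxcmbn1 than in either other library, while their levels there spread from 48.7 to 2850 FPKM along the cluster.

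**Figure D2:**
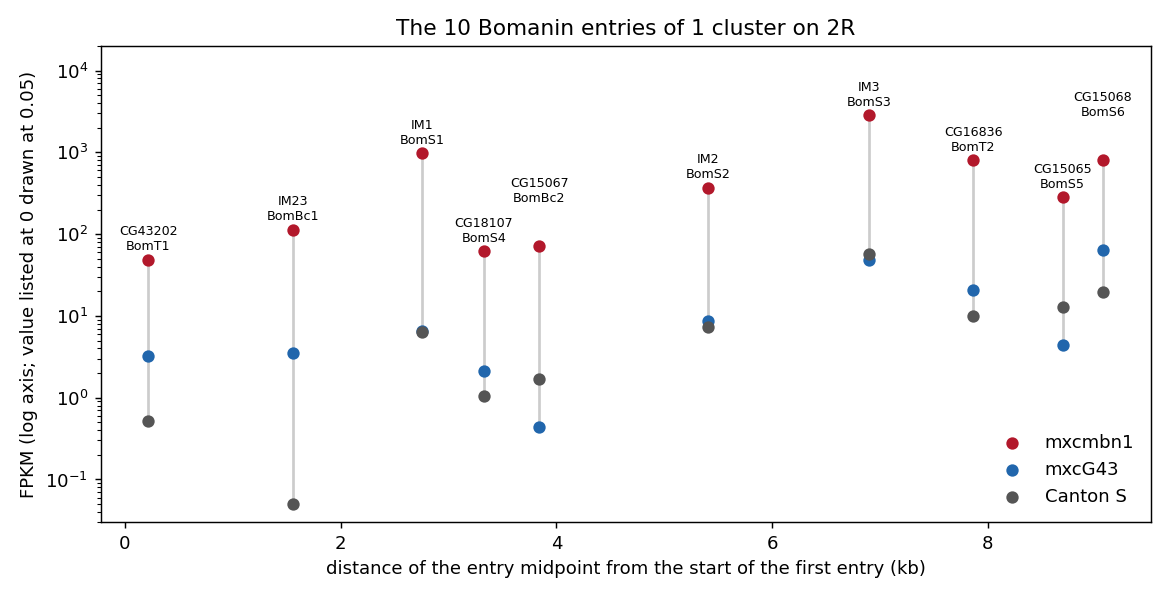
Levels in FPKM (log axis) of the 10 Bomanin entries of the 2R cluster against the distance of each entry's midpoint from the start of the first entry in kb, for the mxcmbn1, mxcG43 and Canton S libraries. The name in the table stands above the RefSeq symbol, and mxcmbn1 is the highest point at every position, from 48.7 FPKM for CG43202 to 2850 FPKM for IM3.

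Other genes with a RefSeq name tied to immunity differed widely in level. CG18067, now Bombardier (Bbd), which is needed for the activity of the short Bomanins, had 1807 FPKM in mxcmbn1, 75.7 FPKM in mxcG43 and 115.1 FPKM in Canton S. CG33470, now Baramicin A1 (BaraA1), a Toll-dependent precursor of several antifungal peptides, had 856 FPKM in mxcmbn1, 7.94 FPKM in mxcG43 and 16.3 FPKM in Canton S. RefSeq lists IM10 as a synonym of this gene, and the table had a separate IM10 entry nearby on 2R with 1563 FPKM in mxcmbn1, 14.0 FPKM in mxcG43 and 29.5 FPKM in Canton S. BaraA1 has a close copy, so reads can be split between these entries and the level of each is uncertain. CG13422, now GNBP-like3, had 114.9 FPKM in mxcmbn1, 1.54 FPKM in mxcG43 and 0.897 FPKM in Canton S, a lower ratio of 70.0. It came to 521, 5 and 3 reads in mxcmbn1, mxcG43 and Canton S. CG11671 (Nazo), an antiviral gene induced downstream of STING, had 71.6 FPKM in mxcmbn1, 5.23 FPKM in mxcG43 and 7.39 FPKM in Canton S. CG42640, the prophenoloxidase PPO3 of lamellocytes, had 5.78 FPKM in mxcmbn1, 0.908 FPKM in mxcG43 and 0.352 FPKM in Canton S, and it is itself 1 of the 7 lamellocyte markers above. By level in mxcmbn1, Bbd and BaraA1 were thus among the 10 highest genes of the set, and PPO3 was among the lowest. A list of 14 immune-induced genes, none of which had a CG number, was chosen with earlier results of these data known. It includes IM1, IM3 and IM23, given above as past the thresholds, so it is no independent check. Any difference counted as higher, and the share of all entries at any difference was not counted. Of the 14, 13 were higher in mxcmbn1 than in both other libraries. The exception was AttA, with 20.2 FPKM in mxcmbn1, 1.10 FPKM in mxcG43 and 22.1 FPKM in Canton S. Drs (889 FPKM in mxcmbn1, 387 FPKM in mxcG43, 39.6 FPKM in Canton S) and Def (6.36 FPKM in mxcmbn1, 5.15 FPKM in mxcG43, 0.454 FPKM in Canton S) were above Canton S in mxcG43 as well. Over the list the median log2 ratio of mxcG43 over Canton S was 0.31. TotA held most of the summed level, and without it the other 13, which include IM1, IM3, IM10 and IM23, summed to 10477 FPKM in mxcmbn1, 510.0 FPKM in mxcG43 and 218 FPKM in Canton S. Drs alone made up 387 FPKM of that mxcG43 sum.

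Serine proteases and their homologues were the most numerous of the named groups. RefSeq gave a name or synonym of the SP series to 14 of the 130 genes and of the SPH series to 13, together 20.8%. Of all 5908 CG-number entries with a mean of at least 1 FPKM, 129 (2.18%) had such a name. The share was 6.67% among the 30 CG-number entries that were high only in mxcG43, 0.601% among the 999 that were low only in mxcmbn1 and 0 among the 22 that were high in both alleles, with the same thresholds turned round. The rule for both alleles did not exclude the 130 genes, and CG13135, CG14850 and CG33093 met both rules. The 22 are thus not a separate set, here or below. Over the 129 entries, 54 were at least 2 times higher in mxcmbn1 than in both other libraries and 17 were at most 0.5 times both, and the median log2 ratio was 0.75 over Canton S and 0.76 over mxcG43. The 102 of these outside the set had medians of 0.09 and 0.29, with 27 at least 2 times higher and 17 at most 0.5 times, so this class as a whole held genes that were lower in mxcmbn1 as well. Of all 5908 entries, 503 (8.51%) were at least 2 times higher in mxcmbn1 than in both and 1720 (29.1%) at most 0.5 times both.

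**Figure D3:**
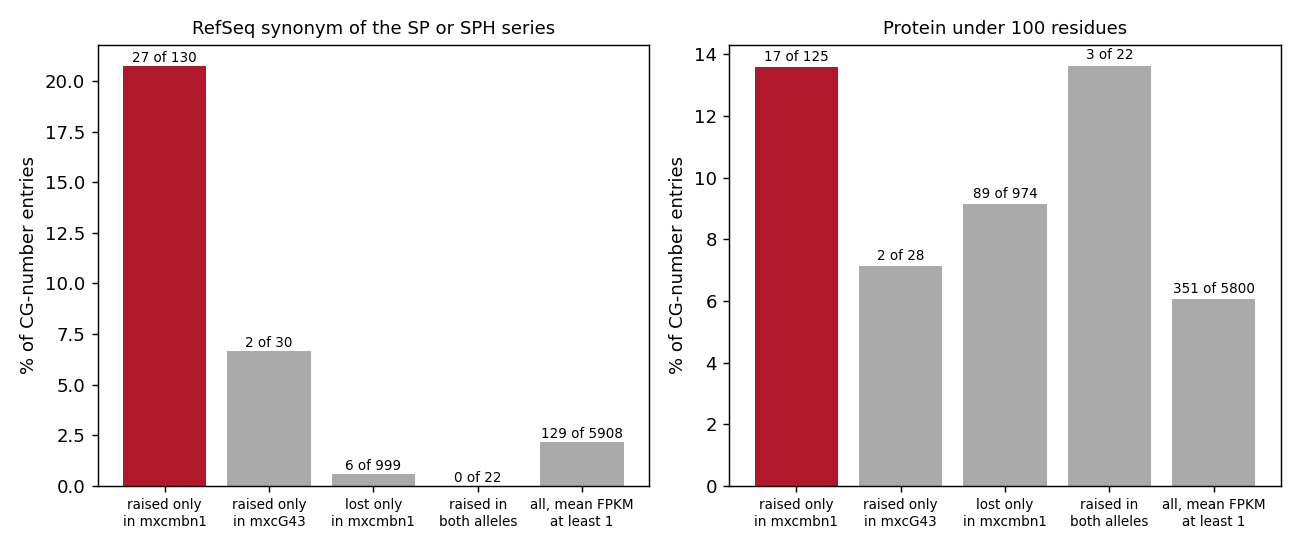
Share of CG-number entries with a RefSeq name or synonym of the SP or SPH series (left) and with a protein under 100 residues (right), in % of entries. Bars stand for the mxcmbn1 set (red), the 3 comparison sets and all entries with a mean of at least 1 FPKM. The set high in both alleles shares CG13135, CG14850 and CG33093 with the mxcmbn1 set. The counts above the bars show 27 of 130 for SP or SPH and 17 of 125 for short proteins in the mxcmbn1 set.

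The highest of this class was CG6639 (SPH93, 2L, 17452924 to 17458775), with 1427 FPKM in mxcmbn1, 114 FPKM in mxcG43 and 113 FPKM in Canton S, and it was also the only one with a symbol other than its CG number. The other 26 had between 5.36 and 204 FPKM in mxcmbn1. Among the proteases, CG33462 had 123 FPKM in mxcmbn1, 1.91 FPKM in mxcG43 and 1.09 FPKM in Canton S. Its neighbour CG33461 had 82.7 FPKM in mxcmbn1, 0.691 FPKM in mxcG43 and 1.21 FPKM in Canton S. These had the largest lower ratios of the class, 61.2 and 63.4, and CG33461 came to 837, 5 and 9 reads in mxcmbn1, mxcG43 and Canton S. Within 17.5 kb of 2R, from 11568065 to 11585515, they stood with CG30091, which had 36.2 FPKM in mxcmbn1, 6.93 FPKM in mxcG43 and 4.42 FPKM in Canton S. The neighbouring entry CG33460 had 94.3 FPKM in mxcmbn1, 9.47 FPKM in mxcG43 and 21.1 FPKM in Canton S and lay outside the set, since its ratio to Canton S was under 5.

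A second group on 2R, from 17406748 to 17446932, held 3 genes of the class. CG30288, a protease, had 79.7 FPKM in mxcmbn1, 14.0 FPKM in mxcG43 and 12.2 FPKM in Canton S. CG33226, a homologue, had 46.5 FPKM in mxcmbn1, 3.78 FPKM in mxcG43 and 3.67 FPKM in Canton S. CG30287, also a homologue, had 15.8 FPKM in mxcmbn1, 2.43 FPKM in mxcG43 and 1.65 FPKM in Canton S. CG30287 and CG33226 share a locus in the table with Egfr, which was not higher in mxcmbn1, at 5.51 FPKM in mxcmbn1, 8.68 FPKM in mxcG43 and 6.07 FPKM in Canton S. On 3R the protease CG9631 (5.36 FPKM in mxcmbn1, 0.367 FPKM in mxcG43, 0.427 FPKM in Canton S) lay within 8.6 kb of the homologue CG31326 (18.6 FPKM in mxcmbn1, 0.351 FPKM in mxcG43, 1.25 FPKM in Canton S). The protease Sp212 between them, which has a name and was not in the set, had 22.7 FPKM in mxcmbn1, 5.93 FPKM in mxcG43 and 6.77 FPKM in Canton S. The proteases CG11841 (5.69 FPKM in mxcmbn1, 0.732 FPKM in mxcG43, 0.406 FPKM in Canton S) and CG11842 (8.35 FPKM in mxcmbn1, 0.499 FPKM in mxcG43, 0.484 FPKM in Canton S) lay side by side on 3R with proteins of the same length, 319 residues. The homologues CG18478 and CG31827 share 1 locus on 2L, from 15644195 to 15714237, and had identical values of 30.4 FPKM in mxcmbn1, 0.673 FPKM in mxcG43 and 0.534 FPKM in Canton S, so they count as 1 measurement. The protease CG33459 was nearly at the fold threshold, with a lower ratio of 5.05, since its level was 86.7 FPKM in mxcmbn1, 17.1 FPKM in mxcG43 and 4.11 FPKM in Canton S.

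The neprilysin family was part in and part out of the set. Of 26 neprilysins and neprilysin-like entries, 5 were in the set, 10 were at least 2 times higher in mxcmbn1 than in both other libraries and 2 were at most 0.5 times both, with a median log2 ratio of 0.90 over each. Of the 22 with a mean of at least 1 FPKM, 45.5% were at least 2 times higher and 9.09% at most 0.5 times both. Over the 5908 CG-number entries at this mean, the shares were 8.51% and 29.1%. The 26 include named entries, such as Nep4, which the condition on the name left out in advance. CG9505 (Nepl4) had 22.2 FPKM in mxcmbn1, 2.12 FPKM in mxcG43 and 3.10 FPKM in Canton S. CG14523 (Nepl19) had 19.6 FPKM in mxcmbn1, 3.53 FPKM in mxcG43 and 3.47 FPKM in Canton S. CG13283 (Nepl9) had 17.7 FPKM in mxcmbn1, 0.618 FPKM in mxcG43 and 1.29 FPKM in Canton S, the largest lower ratio of the 5 at 12.8. Neprilysins are zinc enzymes of similar build, and these 5 encode proteins of 592 to 717 residues. CG9780 (Nepl11) had 11.6 FPKM in mxcmbn1, 1.49 FPKM in mxcG43 and 0.677 FPKM in Canton S. CG5527 (Nep7) had 7.46 FPKM in mxcmbn1, 0.809 FPKM in mxcG43 and 0.743 FPKM in Canton S. Nep4, which has a name, went the other way, with 0.501 FPKM in mxcmbn1, 4.47 FPKM in mxcG43 and 4.39 FPKM in Canton S.

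The other named genes have no common role. CG14850 (Jig) had 70.5 FPKM in mxcmbn1, 9.23 FPKM in mxcG43 and 0.790 FPKM in Canton S, so that mxcG43 lay between the others. CG18522 (AOX1), an aldehyde oxidase, had 60.4 FPKM in mxcmbn1, 8.83 FPKM in mxcG43 and 9.99 FPKM in Canton S. CG18186 (Oxp) had 28.3 FPKM in mxcmbn1, 1.04 FPKM in mxcG43 and 1.52 FPKM in Canton S. Marf1 and sunn are known from the germ line. CG17018 (Marf1), a regulator of mRNA in oocytes, had 25.3 FPKM in mxcmbn1, 4.07 FPKM in mxcG43 and 2.72 FPKM in Canton S. CG32088 (sunn), a factor of meiotic chromosome cohesion, had 5.73 FPKM in mxcmbn1, 0.740 FPKM in mxcG43 and 0.343 FPKM in Canton S. CG41503 (FDY), a Y-linked gene, had 24.4 FPKM in mxcmbn1, 4.77 FPKM in mxcG43 and 4.36 FPKM in Canton S, and with 5.02 the lower ratio nearest to the threshold. By comparison, all 9 markers of the testis were lower in mxcmbn1. The neuropeptide gene CG13936 (CNMa) had 15.4 FPKM in mxcmbn1, 2.498 FPKM in mxcG43 and 1.88 FPKM in Canton S. The phospholipid flippase CG14741 (ATP8B) had 13.5 FPKM in mxcmbn1, 1.62 FPKM in mxcG43 and 1.68 FPKM in Canton S. The lysosomal sulfatase CG12014 (Ids) had 9.02 FPKM in mxcmbn1, 1.40 FPKM in mxcG43 and 0.988 FPKM in Canton S. All 3 had lower ratios under 8. CG4525 (Ttc26), a component of intraflagellar transport, had 7.74 FPKM in mxcmbn1, 1.01 FPKM in mxcG43 and 0.309 FPKM in Canton S.

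RefSeq now lists 3 of the entries as long noncoding RNAs. CG43166 (lncRNA:CR43166, 3R, 20651513 to 20652193) had 522 FPKM in mxcmbn1, 29.8 FPKM in mxcG43 and 12.8 FPKM in Canton S, the ninth highest level of the set. It came to 441, 18 and 8 reads in mxcmbn1, mxcG43 and Canton S, a ratio to mxcG43 of 17.5 (10.96 to 29.8). CG42791 (lncRNA:CR42791) had 29.3 FPKM in mxcmbn1 and 0.611 FPKM in Canton S and was listed at 0 in mxcG43. CG43144 (lncRNA:CR43144) had 22.6 FPKM in mxcmbn1, 4.21 FPKM in mxcG43 and 1.20 FPKM in Canton S. A further 2 entries have been merged into larger genes, CG43676 into DIP-lambda, with 9.65 FPKM in mxcmbn1, 0.331 FPKM in Canton S and a listing at 0 in mxcG43, and CG13791 into RapGAP1, with 6.28 FPKM in mxcmbn1 and a listing at 0 in both other libraries. Their values cover only the part of those genes that the older models held.

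The 70 genes that RefSeq leaves with a CG number and no SP or SPH name carried 57.8% of the summed level in mxcmbn1. CG43085 (3L, 17638586 to 17639837) was the highest gene of the set, with 3183 FPKM in mxcmbn1, 108 FPKM in mxcG43 and 175 FPKM in Canton S. CG43175 (3R, 13470409 to 13470981) had 1333 FPKM in mxcmbn1, 8.09 FPKM in mxcG43 and 14.9 FPKM in Canton S. CG4716 (2R, 9144088 to 9144951) had 959 FPKM in mxcmbn1, 58.1 FPKM in mxcG43 and 119 FPKM in Canton S. CG43085 and CG4716 thus had over 50 FPKM in every library, whereas CG43175 was below 15 FPKM outside mxcmbn1 and its lower ratio of 88.7 was the fourth largest. CG15784 (X, 5324713 to 5326494) had 472 FPKM in mxcmbn1, 32.4 FPKM in mxcG43 and 40.8 FPKM in Canton S. CG43179 (3R, 10077212 to 10085708) had 420 FPKM in mxcmbn1, 9.03 FPKM in mxcG43 and 20.3 FPKM in Canton S. CG42680 (2L, 14587988 to 14588234), whose protein has 60 residues, had 398 FPKM in mxcmbn1, 4.49 FPKM in mxcG43 and 4.35 FPKM in Canton S. Its low levels came to 1 read each as smallest numbers, against 124 in mxcmbn1. At those numbers the ratio to mxcG43 of 88.7 has an interval from 15.6 to 3531. CG5550 (2R, 12704096 to 12706745) had 325 FPKM in mxcmbn1, 17.2 FPKM in mxcG43 and 28.4 FPKM in Canton S.

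The largest lower ratios belonged mostly to genes that were nearly silent outside mxcmbn1. CG43645 (2L, 17486153 to 17486340), with a predicted peptide of 36 residues, had 23.1 FPKM in mxcmbn1 and was listed at 0 in both other libraries, so its ratio is set by the 0.1 FPKM added and is no measure of a fold. CG42792 (2L, 15864968 to 15865429) had 76.7 FPKM in mxcmbn1 and 0.473 FPKM in mxcG43 and was listed at 0 in Canton S. CG6788 (X, 17782210 to 17783437) had 100.1 FPKM in mxcmbn1, 0.944 FPKM in mxcG43 and 1.20 FPKM in Canton S. In all, 4 of the 130 genes were listed at 0 in Canton S, 8 in mxcG43 and 2 in both. Just inside the minimum level, CG13386 had 5.41 FPKM in mxcmbn1, 0.136 FPKM in Canton S and a listing at 0 in mxcG43, and CG16772 had 5.64 FPKM in mxcmbn1, 0.0993 FPKM in Canton S and a listing at 0 in mxcG43. Just outside it, CG18088 had 4.49 FPKM in mxcmbn1, 0.301 FPKM in mxcG43 and 0.657 FPKM in Canton S. At the fold threshold, CG6567 was inside with a lower ratio of 5.11, and CG14762, CG9451 and CG33494 were outside with 4.99, 4.96 and 4.94. CG14762 had 11.7 FPKM in mxcmbn1, 2.27 FPKM in mxcG43 and 2.05 FPKM in Canton S. CG9451 had 41.8 FPKM in mxcmbn1, 8.35 FPKM in mxcG43 and 6.31 FPKM in Canton S. CG33494 had 392 FPKM in mxcmbn1, 69.5 FPKM in mxcG43 and 79.2 FPKM in Canton S, so the threshold left out genes with high levels too.

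**Figure D4:**
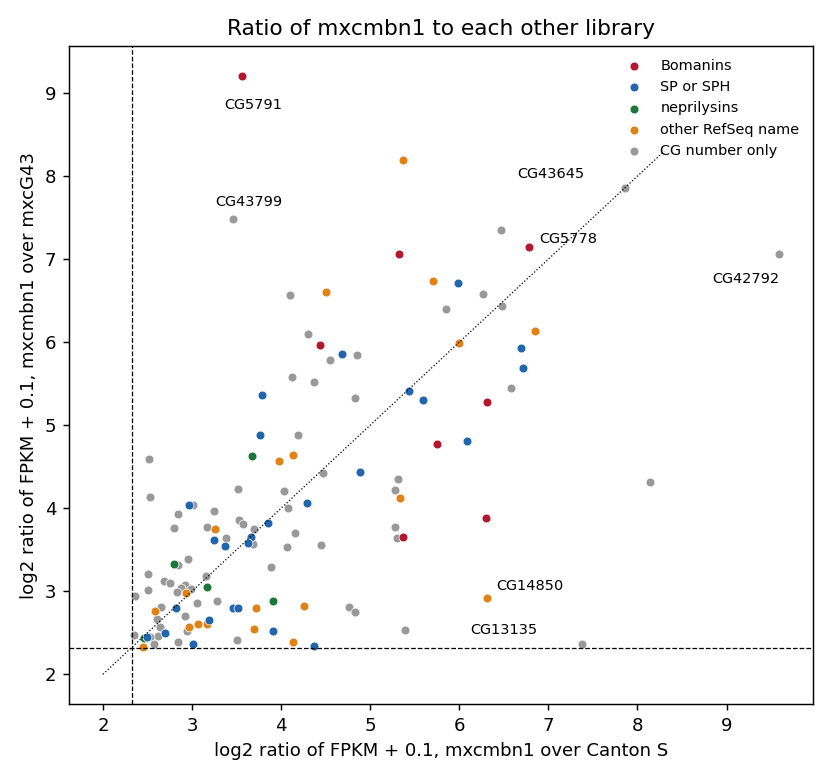
Log2 ratio of mxcmbn1 over mxcG43 against log2 ratio of mxcmbn1 over Canton S, with 0.1 FPKM added, for each of the 130 genes, coloured by RefSeq name. Dashed lines mark the 5-fold threshold that chose the genes and the dotted line marks equal ratios, from which CG5791 (listed at 0 in mxcG43) and CG13135 (0.238 FPKM in Canton S) stood far off on opposite sides.

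Of the 130 genes, 37 (28.5%) had another gene of the set within 20 kb, in 15 groups of which 11 were pairs. With RefSeq positions, taken after the data were seen, the number was 30 in place of 37. The share was 30% among the 30 entries high only in mxcG43, 54.4% among the 999 low only in mxcmbn1 and 13.6% among the 22 high in both alleles. Of the 5908 CG-number entries with a mean of at least 1 FPKM, 94.6% had another of them within 20 kb. These sets differ in size, which affects how often members meet, so the shares are not compared. Several pairs held only members of the set. CG30026 (47.9 FPKM in mxcmbn1, 0.601 FPKM in mxcG43, 2.33 FPKM in Canton S) and CG34054 (44.6 FPKM in mxcmbn1, 3.48 FPKM in mxcG43, 1.04 FPKM in Canton S) lay within 1.9 kb on 2R, with like levels in mxcmbn1. CG4250 (450 FPKM in mxcmbn1, 24.3 FPKM in mxcG43, 27.4 FPKM in Canton S) and CG42566 (222 FPKM in mxcmbn1, 18.7 FPKM in mxcG43, 10.1 FPKM in Canton S) lay within 2.5 kb on 2R. The lncRNA CG42791 lay within 2.2 kb of CG42792 on 2L, and both were listed at 0 in 1 of the other libraries. Bbd and GNBP-like3 lay within 9.1 kb on 2R, and of the entries between them CG30151 had 47.1 FPKM in mxcmbn1, 8.44 FPKM in mxcG43 and 10.7 FPKM in Canton S, and CG30154 had 72.7 FPKM in mxcmbn1, 29.3 FPKM in mxcG43 and 56.1 FPKM in Canton S.

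Other groups also held entries outside the set, some of them lower in mxcmbn1. CG6357 (374 FPKM in mxcmbn1, 68.1 FPKM in mxcG43, 60.7 FPKM in Canton S) and CG6553 (19.3 FPKM in mxcmbn1, 2.16 FPKM in mxcG43, 2.76 FPKM in Canton S) lay within 15.7 kb on 2R with CG6543, which had 114 FPKM in mxcmbn1, 148 FPKM in mxcG43 and 80.6 FPKM in Canton S. Between them CG30485 was lower in mxcmbn1, with 0.0900 FPKM in mxcmbn1, 1.79 FPKM in mxcG43 and 2.29 FPKM in Canton S, as was CG30484, with 0.0212 FPKM in mxcmbn1, 0.416 FPKM in mxcG43 and 0.863 FPKM in Canton S. CG42394 (219 FPKM in mxcmbn1, 23.7 FPKM in mxcG43, 38.6 FPKM in Canton S) and CG6567 (99.1 FPKM in mxcmbn1, 17.8 FPKM in mxcG43, 19.3 FPKM in Canton S) share a locus on 3R with CG4565, which had 4.83 FPKM in mxcmbn1, 4.13 FPKM in mxcG43 and 5.61 FPKM in Canton S. CG1092 (168 FPKM in mxcmbn1, 23.9 FPKM in mxcG43, 26.8 FPKM in Canton S) lay near Nepl11 on 3R. CG34034 (9.95 FPKM in mxcmbn1, 0.632 FPKM in mxcG43, 1.02 FPKM in Canton S) and CG42335 (14.1 FPKM in mxcmbn1, 2.57 FPKM in mxcG43, 1.15 FPKM in Canton S) flanked 4 entries on 3R with mxcmbn1 levels of 4.32 to 164 FPKM, each 1.15 log2 units or less above Canton S. CG42390 (45.8 FPKM in mxcmbn1, 8.80 FPKM in mxcG43, 7.58 FPKM in Canton S) stood beside the BomT3 and BomBc3 locus on 3R.

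By chromosome, 39 of the 130 genes (30%) were on 2R, 31 (23.8%) on 2L, 40 (30.8%) on 3R, 12 (9.23%) on 3L and 5 (3.85%) on X. Of the 5908 CG-number entries 19.3% were on 2R, 19.3% on 2L, 24.5% on 3R, 19.4% on 3L and 16.2% on X. The share on X was 4.55% among the 22 entries high in both alleles, 10% among the 30 high only in mxcG43 and 12.3% among the 999 low only in mxcmbn1. Coding lengths came from the Ensembl annotation of BDGP6 and were found for 125 of the 130 genes and 5800 of the 5908 entries. The median protein had 282 residues, against 349 over the 5800 entries, and 17 of 125 proteins (13.6%) had fewer than 100 residues, against 6.05%. The Bomanins made up 6 of these 17. Entries high in both alleles had the same share of proteins under 100 residues, 3 of 22 (13.6%), so it was not particular to the set. The share was 7.14% among those high only in mxcG43 and 9.14% among those low only in mxcmbn1. Genes with a single exon were 16% of the 125 and 18.9% of the 5800 entries, a smaller difference in share than that in short proteins. A locus shared with another entry was found for 33 of the 130 genes (25.4%), against 38.9%.

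The ratio of mxcG43 to Canton S was not set by the rule, which only held both low. In mxcG43, 67 of the 130 genes were higher than in Canton S (51.5%), where 42.7% of the 5908 entries were, 61 were lower and 2 were equal. The median log2 ratio was 0.02 (quartiles -0.55 and 0.63), against -0.08 (-0.41 and 0.24) over the 5908 entries. This median was 0 when the libraries were rescaled by the median ratio and -0.03 when 1 FPKM was added in place of 0.1, so no direction was found for mxcG43. The genes were, however, spread more widely. At least 2 times higher in mxcG43 were 24 (18.5%, against 5.75%), at most 0.5 times were 20 (15.4%, against 6.21%), and 66.2% lay within 2 times, against 88.0%. Their levels in these libraries were low, with medians of 2.58 FPKM in mxcG43 and 2.33 FPKM in Canton S. The rule held them low there but did not hold the 5908 entries low, so the spreads were compared at unlike levels. The wider spread is therefore not read as a trait of the 130 genes, and the part of counting error in it was not tested. By kind, the 70 genes with a CG number only had 29 higher in mxcG43 and 40 lower, and the 8 Bomanins had 4 higher and 4 lower. Among the 14 proteases 12 were higher in mxcG43. The rescalings divided mxcG43 by 0.986 and 0.958, so they could not lower this count. CG11842 counted as higher with 0.499 FPKM in mxcG43 and 0.484 FPKM in Canton S. Of the 14 proteases 4 were at least 2 times higher and none at most 0.5 times. Among the 13 homologues 8 were higher, none at least 2 times and 4 at most 0.5 times.

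**Figure D5:**
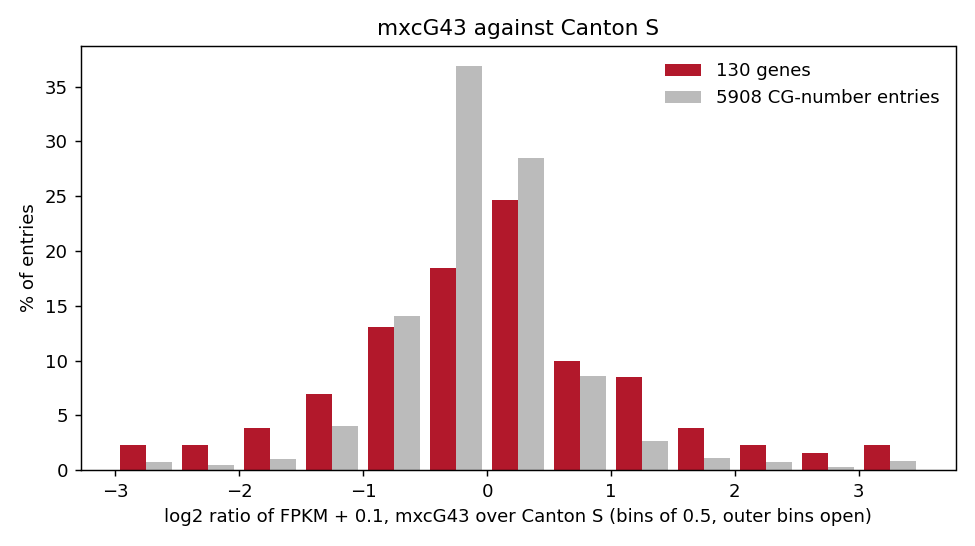
Distribution of the log2 ratio of mxcG43 over Canton S (0.1 FPKM added, bins of 0.5, outer bins open) for the 130 genes and for the 5908 CG-number entries with a mean of at least 1 FPKM, in % of each. The 130 genes are spread more widely on both sides, with 66.2% within 2 times, against 88.0%. The rule held the 130 genes low in both libraries and did not hold the 5908 entries low, so the spreads are at unlike levels.

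The ratio was at least 5 for 6 genes (4.62%, against 1.4% of the 5908 entries) and at most 0.2 for 4 (3.08%, against 0.863%). These shares too compare genes held low with entries that were not. The 10 genes were picked out after their values were seen. CG13135 had 56.0 FPKM in mxcmbn1, 10.8 FPKM in mxcG43 and 0.238 FPKM in Canton S. It shares its locus with another entry, so its level may not be fully separate. CG33093 had 30.4 FPKM in mxcmbn1, 5.15 FPKM in mxcG43 and 0.624 FPKM in Canton S. Its smallest read numbers were 66 in mxcmbn1, 8 in mxcG43 and 1 in Canton S. CG40635 had 28.2 FPKM in mxcmbn1 and 1.32 FPKM in mxcG43 and was listed at 0 in Canton S. With Jig, BomT1 and CG42792 these made up the 6. CG33093 and BomT1 came to 1 read in Canton S as a smallest number, which is too few for CG33093. CG40635 and CG42792 were listed at 0 there. On the other side CG43799, whose locus is also shared, had 42.96 FPKM in mxcmbn1, 0.140 FPKM in mxcG43 and 3.81 FPKM in Canton S. Its smallest read numbers were 428 in mxcmbn1, 1 in mxcG43 and 28 in Canton S. CG43153 had 175 FPKM in mxcmbn1, 1.74 FPKM in mxcG43 and 10.1 FPKM in Canton S. Its smallest read numbers were 281 in mxcmbn1, 2 in mxcG43 and 12 in Canton S. The 2 others were BomBc3 and the lncRNA CG42791, both listed at 0 in mxcG43.

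The 62 genes that are not among the 68 chosen for description by rank, name or position had levels of 5.41 to 316 FPKM in mxcmbn1, with a median of 42.2 FPKM. Their medians were 2.64 FPKM in mxcG43 and 2.52 FPKM in Canton S, and their lower ratios ran from 5.05 to 57.5 with a median of 8.44. The choice of the 68 took the highest levels and the largest ratios out of these ranges. Over all 130 genes, smallest whole numbers of reads were recovered for 53. Of these, 18 came to 3 reads or fewer in Canton S or in mxcG43, and their actual numbers may be larger. For 38 of the 53 the lower bounds of both ratios at those numbers were at least 5.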

How the data were processed

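Total RNA from whole male larvae was sequenced by the authors as stranded, single-end reads of 51 bp, checked with FastQC 0.11.5, aligned to BDGP5 with TopHat2 2.0.6 and quantified with Cufflinks. The deposited FPKM values (1 per gene and library) were used as they stand. No read counts were used, and the annotation and the read filter are not given in the sources used here. Loci in the table start from 0 and are given from 1.

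Ratios were taken after adding 0.1 FPKM. The genes and gene lists were chosen with earlier results of these data known. Values in every library are given for the 15 highest genes, the 10 largest lower ratios, genes with a RefSeq name, genes within 20 kb of another and the 3 entries on each side of the fold threshold. RefSeq Release 6 gave names and synonyms, by locus tag for 125 genes and by synonym for 5, which were left out of protein lengths. Protein lengths and exons came from the Ensembl annotation of BDGP6, whose coordinates were not used. Relative depth and the smallest whole numbers of reads (tolerance 6e-05) came from FPKM ratios of low genes, for 3219 of 13310 entries and for 4 after shuffling. Alternatives covered the pseudocount, minimum, fold, scaling, shared loci, names and distances. Steps were tested on simulated data. The work was done in Python 3.11.15 with scipy 1.17.1, pandas 2.3.3 and numpy 2.4.6, and plots with matplotlib 3.10.9.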

Additional observations from a re-analysis of the deposited data

How the results depend on the processing

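Of 54 alternatives, 47 left the value near the main one and 7 moved it. The tolerance was wide, since 193 or 97 genes in place of 130 still counted as near. A fold of 3 in place of 5 gave 215 genes with median log2 ratios of 2.99 over Canton S and 2.80 over mxcG43, and a fold of 10 gave 66 genes with medians of 4.75 and 5.08, both by the construction of the rule. Counting as higher in mxcG43 only genes at least 2 times above Canton S gave 24 in place of 67. The number of genes was 103 with 1 FPKM added, 134 with 0.01 added, 168, 110 and 193 with a minimum of 1, 10 or none, 119 with libraries scaled to a common median ratio, 130 with a common upper quartile, and 97 without shared loci. The next 3 were chosen after the data were seen. Leaving out 28 genes whose smallest read numbers were 3 or fewer, or that were listed at 0, gave medians of 3.51 over Canton S and 3.36 over mxcG43. RefSeq positions gave 30 genes with a near neighbour in place of 37, and identical entries counted once gave 129 genes. No paired analysis was possible because there is 1 library per genotype, and no replicate could be left out. The planned counts of hydrophobic protein starts, promoter motifs and protein families were not run, since no sequences were used here. With 1 library each, differences of stock, stage and cell makeup cannot be told apart from the allele.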
